A study of Mus musculus with 8 samples.

Results

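The 247 annotated miRNA genes described here were chosen from a count table of 47643 mouse genes. They are the rows whose symbol starts with Mir and a digit or with Mirlet7 and whose counts, summed over the 8 libraries, reached 20. A set of 17 miRNA genes was left out by name, among them the Mir290 to Mir295 cluster, Mir1306, Mir23b, Mir27b, Mir24-1, Mir29a and a few members of the Mir17 family. Of the 1180 miRNA rows in the table, 581 held no count, and 916 held under 20 counts without being left out by name. The sum over all libraries chose the members, so their level is a description. Genotype labels were not used in the sum, but a gene could reach 20 counts through some genotypes alone, as Mir182 did. Membership is therefore not free of differences between genotypes. The names left out were picked with earlier results of these data known.

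The cells were E14 mouse embryonic stem cells, a line derived from the blastocyst of strain 129/Ola, and there were 4 groups of 2 libraries each. WT cells carried no listed mutation, Dgcr8_KO cells lacked the RNA-binding subunit of the Microprocessor, Drosha_KO cells lacked its nuclease, and Ago1_2_KO cells were mutant for both Argonautes Ago1 and Ago2. All groups were kept in 2i (N2B27 medium, LIF, CHIR99021 and PD0325901) for 2 weeks or longer. Whether both libraries of a group were grown from separate clones or cultures is not stated in the labels. The p-values therefore reflect library-to-library spread, which may be technical.

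A miRNA begins as a hairpin inside a long primary transcript. DROSHA and DGCR8, together the Microprocessor, cut the hairpin out, DICER1 trims it to a short duplex, and an Argonaute protein carries the chosen strand to its targets, which are recognised mainly through the seed near its 5′ end. Some hairpins reach DICER1 by another way: mirtrons are short introns released by splicing, and a few miRNAs derive from snoRNA-like transcripts. Mature miRNAs have no poly(A) tail, so counts on a miRNA gene in a polyA library come from longer transcripts that overlap it. Such transcripts may hold the whole hairpin or only an edge of it.

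The sequences below are the mature miRNAs of the genes on which the results turn, grouped by shared seed. All are RefSeq entries on GRCm38.p6, written 5′ to 3′, with the seed, bases 2 to 8, in capitals. In all, 229 members had a mature sequence there. The first group shares the seed AAAGUGC and comes from 3 separate loci, on chromosomes 14, X and 5.
miR-17-5p: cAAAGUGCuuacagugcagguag
miR-20a-5p: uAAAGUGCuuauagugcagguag
miR-106a-5p: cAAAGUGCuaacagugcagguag
miR-106b-5p: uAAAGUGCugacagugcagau
miR-93-5p: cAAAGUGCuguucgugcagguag
The same loci encode miRNAs with the seeds AUUGCAC and GUGCAAA, and Mir18 adds a seed that differs from the first group.
miR-92a-3p: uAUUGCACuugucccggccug
miR-363-3p: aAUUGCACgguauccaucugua
miR-19a-3p: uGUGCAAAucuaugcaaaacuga
miR-19b-3p: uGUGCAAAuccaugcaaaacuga
miR-18a-5p: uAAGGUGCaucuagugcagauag
The 4 let-7 members share GAGGUAG, and the pair miR-181c and miR-181d share ACAUUCA.
let-7a-5p: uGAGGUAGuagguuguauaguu
let-7d-5p: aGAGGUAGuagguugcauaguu
let-7f-5p: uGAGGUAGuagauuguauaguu
let-7g-5p: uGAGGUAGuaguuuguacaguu
miR-181c-5p: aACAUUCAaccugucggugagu
miR-181d-5p: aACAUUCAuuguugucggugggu
The last sequences stand for genes that are described singly.
miR-296-5p: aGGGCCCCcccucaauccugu
miR-298-5p: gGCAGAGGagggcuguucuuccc
miR-221-3p: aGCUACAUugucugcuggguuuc
miR-101a-3p: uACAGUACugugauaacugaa
miR-15a-5p: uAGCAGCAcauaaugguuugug
miR-29b-3p: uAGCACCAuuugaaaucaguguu
miR-692: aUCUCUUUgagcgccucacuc

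Mirtrons differ from these in that the hairpin is the intron itself. The RefSeq hairpins of Mir1982, Mir1981 and Mir877 start with GU and end with AG, the usual ends of an intron, and their lengths of 74, 82 and 85 bases equal those of the annotated introns of Oaz1, Marc2 and Abcf1 in which they lie. Capitals here mark the mature miRNAs listed by RefSeq. They are shown beside the Mir20a hairpin, which lies inside an exon of a non-coding host, is longer than these, and also starts with GU and ends with AG, so these letters alone do not set mirtrons apart.
Mir1982 hairpin: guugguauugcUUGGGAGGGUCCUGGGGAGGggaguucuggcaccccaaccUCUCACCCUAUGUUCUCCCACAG
Mir1981 hairpin: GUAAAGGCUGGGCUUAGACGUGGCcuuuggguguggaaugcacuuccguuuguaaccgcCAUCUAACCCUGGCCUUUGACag
Mir877 hairpin: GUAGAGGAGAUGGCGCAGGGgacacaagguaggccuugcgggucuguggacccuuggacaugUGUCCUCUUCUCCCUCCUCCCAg
Mir20a hairpin: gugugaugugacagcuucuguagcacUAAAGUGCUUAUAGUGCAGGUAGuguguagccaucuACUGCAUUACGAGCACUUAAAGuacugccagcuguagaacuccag

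Total counts per library lay between 13229771 and 26333907. Drosha stood at 278 and 266 CPM (counts scaled to a common library size, with TMM factors) in WT and at 51.2 and 82.4 CPM in Drosha_KO. Dgcr8 was higher, not lower, in Dgcr8_KO (392 and 370 CPM against 78.1 and 70.5 in WT). It was also higher in Drosha_KO (304 and 234 CPM) and stood at 91.2 and 82.9 CPM in Ago1_2_KO. Neither Ago1 nor Ago2 was called in Ago1_2_KO by edgeR's quasi-likelihood test (adjusted p 0.301 and 0.132). Thus only the Drosha label was checked by a fall in the RNA of its own gene. The 8 stem cell markers summed to between 5454 and 6465 CPM in every library, and 6 feeder fibroblast markers to at most 8.90 CPM. Of 28 miRNA biogenesis genes tested, 2 were called higher and 1 lower in Dgcr8_KO, 6 and 2 in Drosha_KO, and 3 and 1 in Ago1_2_KO. Over all genes tested the shares were 2.45% and 4.48%, 6.54% and 4.83%, and 10.2% and 7.38%. The calls include Dgcr8, higher in both Microprocessor mutants, and Drosha, lower in Drosha_KO. In Drosha KO 1 the long non-coding RNA Meg3 held 15 counts against 5081 to 9083 in the other 7 libraries, and results on its chromosome 12 domain are therefore given with and without that library.

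Positions were read from GENCODE M21, on GRCm38. On their own strand, 130 members overlapped an exon of a host gene and 91 lay inside an intron. Another 18 were intergenic and 8 lay inside a gene on the opposite strand only. Hosts were protein-coding genes or pseudogenes for 182 members and non-coding RNA genes for 39. An end of the miRNA gene fell within 10 bases of an annotated splice site of the host in 112 members. An overlap of any length counted as exonic. Of the 130 exonic members, 49 had such an end, and 19 overlapped only exons of transcripts annotated as keeping an intron. Whether reads of a spliced host that touch only the edge of a member were counted on it is unknown. There were 55 members in 14 clusters, groups on 1 strand with neighbours within 10 kb.

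Counts were spread very unequally. The median member had 82 counts over the 8 libraries. The ferritin light chain pseudogene members Mir692-2 (inside Ftl2-ps) and Mir692-1, together with Mir5121 in an exon of the ribosomal protein gene Rpl13a, took 48.5% of all counts on members. Mir692-2 alone held 36803 counts, and because the Mir692 copies share one mature sequence and lie in near-identical ferritin copies, how reads were split among them is uncertain. Other members with many counts lay in Ddx5 (Mir3064), Ddx39b (Mir8094), Scd2 (Mir5114) and Tkt (Mir3076), all abundant mRNAs. These counts are not adjusted for length. Just inside the threshold were Mir1192 and Mir207, with 20 counts each, and just outside were Mir1943 and Mir6976, with 19 each. Mir3068 stands on 2 overlapping rows of the table, both of them members.

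A filter on low counts left 151 members in the test, out of 16388 genes, and 96 without one. A member that passed the filter only through the group in which it was high had to differ between groups, so counts of calls below are over the tested members and do not describe all 247. Below, called means an adjusted p under 0.05 in edgeR's quasi-likelihood test, with the adjustment over all genes tested.

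The loss of either Microprocessor subunit was compared with the presence of both by setting the mean of Dgcr8_KO and Drosha_KO against the mean of WT and Ago1_2_KO. In this joint comparison 19 of the 151 tested members rose and 0 fell, by edgeR, a share of 12.6% higher. Over all genes tested, 0.5% were called higher and 0.934% lower. Neighbouring members of a cluster or host can share a transcript, so the 19 stand for fewer separate loci. This holds for all counts of members below. At an unadjusted p under 0.05 there were 47 members, in either direction. No share over all genes at this threshold is given, here or below. Counts at it can therefore not be set against the shares at an adjusted p. The members' median log2 change was 0.28 and that of all tested genes was -0.02. The count of 19 became 11 when Dgcr8 KO 1 was left out, 9 when Ago1_2 KO 1 was, and 32 when Drosha KO 1 was. Over all genes the 82 called higher became 41, 41 and 93 in these fits. DESeq2 called 30 higher, against 211 of all genes. Of the 19, 9 were called in every fit that left out 1 library: Mir18, Mir19a, Mir20a, Mir92-1, Mir106a, Mir298, Mir181c, Mir181d and Mirlet7f-1. The other 10 each lost the call in some, in every case including the fit that left out Ago1_2 KO 1.

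**Figure D1:**
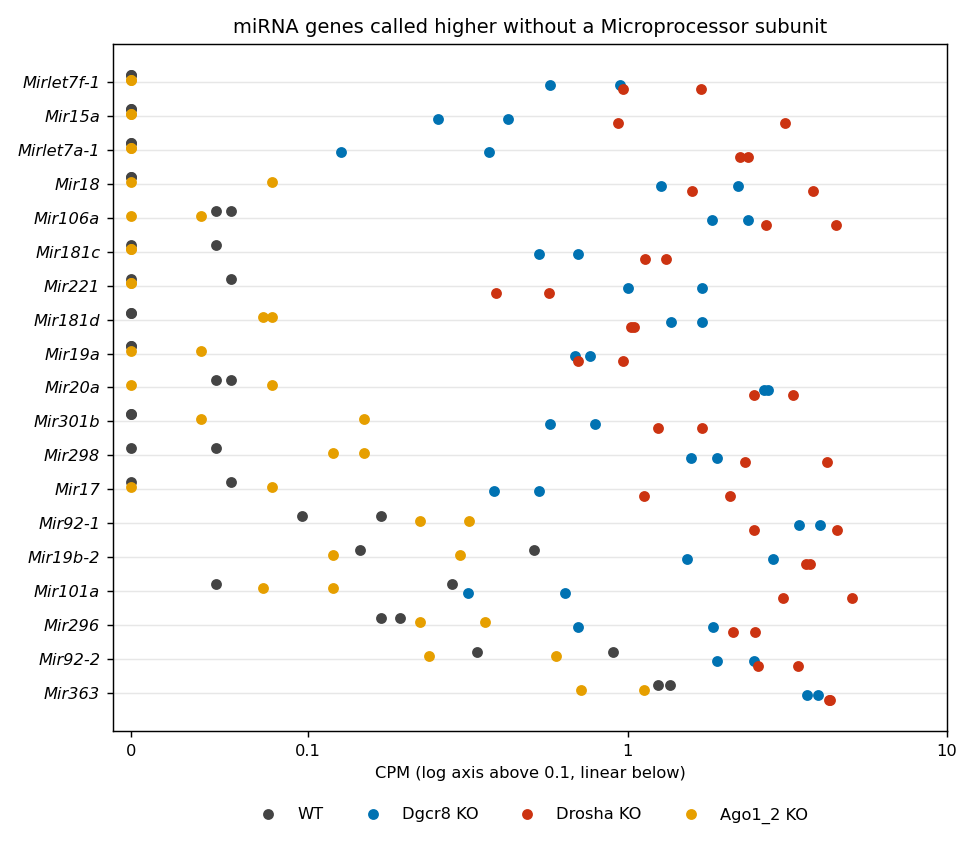
CPM of the 19 miRNA genes called higher in the joint comparison, 1 point per library, coloured by genotype, on an axis that is logarithmic above 0.1 CPM and linear below. In every row the 4 points of Dgcr8_KO and Drosha_KO lie to the right of the 4 points of WT and Ago1_2_KO.

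Without any test, 30 of all 247 members had a higher CPM in each of the 4 Dgcr8_KO and Drosha_KO libraries than in any WT or Ago1_2_KO library, which is 12.1% of them. Among the 18772 genes with 20 or more counts this held for 1.65%. The reverse order was seen in 3 members, Mir6921, Mir6986 and Mir6990, named because they are so few, and in 1.58% of genes. Of the 30, 6 were too low to be tested: Mir182, Mir34a, Mir365-2, Mir211, Mir330 and Mir425. Mir34a, a p53 target, had 1 and 0 counts in WT, 7 and 5 in Dgcr8_KO, 31 and 10 in Drosha_KO, and 1 and 0 in Ago1_2_KO. Mir182 had 0 counts in all 4 WT and Ago1_2_KO libraries, 1 and 3 in Dgcr8_KO and 16 and 11 in Drosha_KO. Mir182 and Mir34a thus reached 20 counts only, or almost only, through the groups in which they were high. The count of 30 is therefore a description and no further support.

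The first cluster described is the polycistron inside exons of the non-coding gene Mir17hg, known as an oncogenic miRNA cluster. Mir92-1 (chr14:115044427-115044506, plus strand) had 3 and 2 counts in WT, 76 and 54 in Dgcr8_KO, 80 and 64 in Drosha_KO, and 8 and 3 in Ago1_2_KO. The groups with both subunits stayed at or under 8 counts, and the groups without one reached 54 or more. The joint log2 change was 4.19 ± 0.40 (SE; edgeR adjusted p = 0.000851). Mir20a (chr14:115044157-115044263) had 1 and 1 counts in WT, 52 and 42 in Dgcr8_KO, 58 and 64 in Drosha_KO, and 2 and 0 in Ago1_2_KO. Its log2 change was 5.60 ± 0.49 (edgeR adjusted p = 0.000536). Mir18, in the same cluster, had 0 counts in both WT libraries, 42 and 20 in Dgcr8_KO, 67 and 41 in Drosha_KO, and 2 and 0 in Ago1_2_KO. Its 170 counts against 2 gave a depth-scaled ratio of 83.7, with an exact 95% binomial interval of 22.8 to 696. Intervals and floors given here cover counting error only.

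The remaining pair of this cluster, Mir17 and Mir19a, also rose. Mir17 had 1 and 0 counts in WT, 10 and 6 in Dgcr8_KO, 37 and 29 in Drosha_KO, and 2 and 0 in Ago1_2_KO. It was called in Drosha_KO against WT but not in Dgcr8_KO against WT (edgeR adjusted p = 0.0088 and 0.063). The difference between these mutants was not called either (log2 1.79 ± 0.65, edgeR adjusted p = 0.092). Mir19a went from 0 and 0 counts in WT to 13 and 12 in Dgcr8_KO and 17 and 18 in Drosha_KO, with 1 and 0 in Ago1_2_KO. Thus the 5 members of the Mir17hg cluster were all called higher in the joint comparison, although Mir17 lost its call without WT 2 and without any of the Dgcr8_KO or Ago1_2_KO libraries.

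The paralogous cluster on chromosome X moved in the same direction with smaller changes where its WT levels were higher. Mir106a, in the non-coding gene Kis2 (chrX:52742503-52742567, minus strand), had 1 and 1 counts in WT, 45 and 29 in Dgcr8_KO, 79 and 70 in Drosha_KO, and 1 and 0 in Ago1_2_KO. That is 223 counts against 3, a ratio of 73.2 with an interval of 24.7 to 357. Mir363, an intergenic member of the cluster, had 22 and 28 counts in WT, 69 and 62 in Dgcr8_KO, 75 and 111 in Drosha_KO, and 18 and 15 in Ago1_2_KO. Its joint log2 change of 1.89 ± 0.28 (edgeR adjusted p = 0.0121) was the smallest among the 19 called. Between them were Mir19b-2 (3.49 ± 0.47) and Mir92-2 (2.37 ± 0.42), whose edgeR adjusted p were 0.00764 and 0.0273. Mir92-2 lost its call in 6 of the 8 fits that left out 1 library, and Mir363 in 3.

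The third locus with this seed, inside the replication helicase gene Mcm7, had no call. Mir106b had 1 and 6 counts in WT, 11 and 6 in Dgcr8_KO, 17 and 16 in Drosha_KO, and 3 and 1 in Ago1_2_KO. Mir93 had 7 and 8 counts in WT, 16 and 16 in Dgcr8_KO, 17 and 21 in Drosha_KO, and 8 and 2 in Ago1_2_KO. Their joint log2 changes were 2.13 ± 0.55 and 1.52 ± 0.39 (edgeR adjusted p = 0.10 for both), and in both the CPM of the groups did not overlap. Mir25, in the same host, had a log2 change of -0.04 ± 0.38.

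In the joint comparison, the called intronic members other than Mir15a lay in protein-coding hosts. Mir181d and Mir181c, inside the germ cell gene Nanos3 (chr8:84178716-84178787 and chr8:84178873-84178961, minus strand), were close to undetected when the Microprocessor was complete. Mir181d had 0 counts in both WT libraries, 26 and 27 in Dgcr8_KO, 18 and 27 in Drosha_KO, and 2 and 1 in Ago1_2_KO. Mir181c had 0 and 1, 10 and 11, 20 and 34, and 0 and 0 counts in the same order. The ratio was 32.2 for Mir181d (interval 10.7 to 159). In 2610318N02Rik, Mir301b had 0 counts in both WT libraries, 15 and 9 in Dgcr8_KO, 22 and 44 in Drosha_KO, and 1 and 2 in Ago1_2_KO. That is 90 counts against 3, a ratio of 29.5 with an interval of 9.79 to 146 (edgeR adjusted p = 0.00827). Its neighbour Mir130b did not pass, at 2.21 ± 0.58 (edgeR adjusted p = 0.11).

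Among intergenic members, the pair Mir298 and Mir296 on chromosome 2, from the imprinted Gnas region, rose together. Mir298 (chr2:174267504-174267585, minus strand) had 0 and 1 counts in WT, 30 and 30 in Dgcr8_KO, 74 and 60 in Drosha_KO, and 3 and 2 in Ago1_2_KO. All 4 libraries lacking a subunit held at least 30 counts and none of the others more than 3. The joint log2 change was 5.16 ± 0.52 for Mir298 and 2.84 ± 0.44 for Mir296 (edgeR adjusted p = 0.00114 and 0.0148). Mir221, on chromosome X, had 19 and 27 counts in Dgcr8_KO and 10 and 10 in Drosha_KO, with 1 and 0 in WT and 0 and 0 in Ago1_2_KO. Among the 19 called members, CPM was higher in both Dgcr8_KO libraries than in both Drosha_KO libraries for Mir221 and Mir181d, and neither difference was called.

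The let-7 genes, whose mature products are known to accumulate as stem cells differentiate, were at or near 0 in WT. Mirlet7a-1 (chr13:48538179-48538272, minus strand, in an exon of the non-coding gene 6720427I07Rik) had 0 counts in all 4 WT and Ago1_2_KO libraries, 7 and 2 in Dgcr8_KO, and 42 and 58 in Drosha_KO. Against a floor of 3 counts over the 4 libraries, this was at least 35.8-fold higher, a bound that pools both mutants. Mirlet7a-1 was called in Drosha_KO against WT but not in Dgcr8_KO against WT. Among the members called in the joint comparison, this also held for Mir101a, Mir15a, Mir17 and Mir92-2. Mirlet7f-1 had 0 counts in the 4 WT and Ago1_2_KO libraries, 18 and 9 in Dgcr8_KO, and 30 and 25 in Drosha_KO, at least 26.9-fold higher. Mirlet7d, the third gene of this host, had 1 and 3 counts in WT, 19 and 4 in Dgcr8_KO, 23 and 22 in Drosha_KO, and 7 and 2 in Ago1_2_KO. Dgcr8 KO 2 and Ago1_2 KO 1 overlapped in counts, and the joint change was not called (2.38 ± 0.57, edgeR adjusted p = 0.086). Mirlet7g, in an intron of Wdr82, was too low for a test, with 2 and 0 counts in WT, 2 and 0 in Dgcr8_KO, 16 and 11 in Drosha_KO, and 0 and 0 in Ago1_2_KO.

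Against 0.5% of all genes tested, by position, 9 of 92 tested exonic members, 4 of 42 intronic members and 6 of 11 intergenic members rose in the joint comparison, and 0 of 6 opposite-strand members did, a number too small to set apart from that share. Their median log2 changes were 0.23, 0.33, 3.49 and 1.57. These classes include members of the chromosome 12 domain, where Drosha KO 1 held almost no counts. Without that domain, 6 of 8 tested intergenic members rose, with a median of 2.61, and the 3 tested opposite-strand members had a median of -0.36. By kind of host, 10 of 30 rose inside non-coding RNA genes, with a median of 4.41 (4.38 with genes at 0 in a group set to their bound), and inside protein-coding genes or pseudogenes 3 of 104, with a median of 0.13, again beside 0.5% of all genes. These 3 were Mir181c, Mir181d and Mir301b. Without the chromosome 12 domain, 10 of 17 tested members inside non-coding RNA genes rose, with a median of 4.32. Members of a cluster were counted singly in all these classes. No test of the difference between classes was made.

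**Figure D2:**
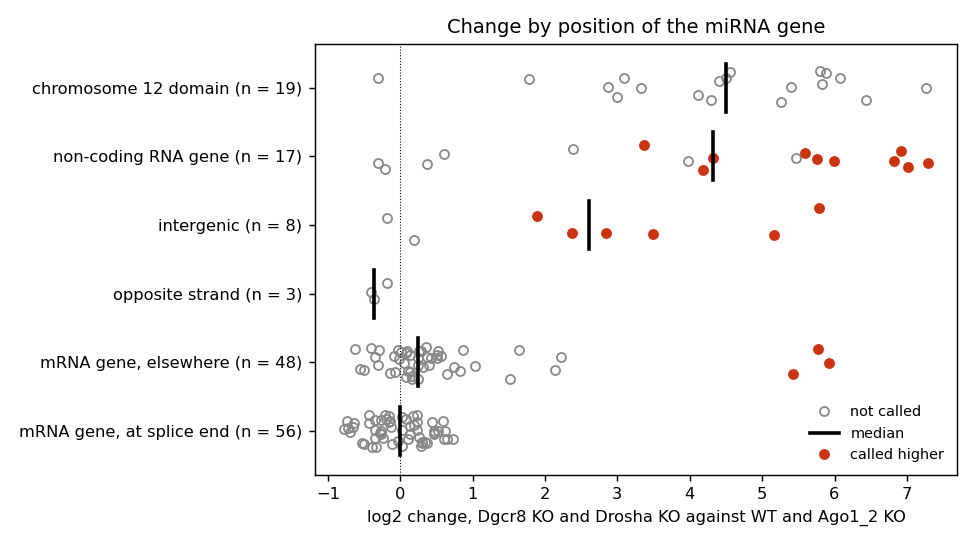
Joint log2 change of each tested miRNA gene (1 point per gene) by its position, with members of the chromosome 12 domain as a row of their own, filled where called higher and with a bar at the median. The 56 members at a splice end of an mRNA gene or pseudogene lie around 0 and hold 0 calls, near the 0.5% called higher over all genes, whereas most intergenic members and members in non-coding RNA genes lie well above 0; fitted values of genes with 0 counts in a group depend on the prior count.

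Members at a splice end are given apart. Of 112 such members 59 were tested and 0 rose or fell in the joint comparison by edgeR (5 had an unadjusted p under 0.05), with a median log2 change of 0.02. Since 0.5% of all genes tested were called higher and 0.934% lower, a count of 0 of 59 is near the background. Inside a gene but away from a splice end, 13 of 75 tested members rose, with a median of 0.51. Counting every member, tested or not, the 4 libraries lacking a subunit lay above the other 4 in 0 of 112 splice-end members and in 20 of 109 members away from one, against 1.65% of genes with 20 or more counts. They lay below the other 4 in 3 and 0 members of these classes, against 1.58% of genes. All 3 members in the reverse order were at a splice end, a number too small to set apart from that share. Members at a splice end had shorter hairpins (median 68 bases, against 82.5) with a higher GC content (56.8%, against 51.3%).

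The mirtron genes belong to this class. Mir1982, in Oaz1, had 54 and 121 counts in WT, 74 and 76 in Dgcr8_KO, 58 and 89 in Drosha_KO, and 63 and 36 in Ago1_2_KO. Mir1981, in Marc2, had 46 and 91, 43 and 30, 67 and 48, and 73 and 34 in the same order. The groups overlapped in both genes. The joint log2 changes of Mir1982, Mir1981, Mir877 and Mir702 were 0.17 ± 0.28, -0.35 ± 0.32, 0.36 ± 0.41 and -0.16 ± 0.27, and none was called (the smallest edgeR adjusted p was 0.61). Counts on Mir1982 stayed between 1.99 and 3.40 per 100 counts of Oaz1 in all 8 libraries. The snoRNA-like Mir1839 had 6 and 11 counts in WT, 22 and 12 in Dgcr8_KO, 7 and 5 in Drosha_KO, and 11 and 4 in Ago1_2_KO, and was not called (0.36 ± 0.44). Of the other genes listed as made without the usual cut, Mir1224, Mir320 and Mir664 had 0 counts and Mir484 had 2, which kept them out of the members.

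Each member inside a host was set beside that host in the same fit. All 13 members inside a host that rose in the joint comparison had a larger change than the host, with medians of 5.77 and 1.99. These 13 were chosen by their call in this same comparison, so a larger change than the host is partly built in. For 11 of the 13 the host was called higher as well, and Nanos3, the host of Mir181c and Mir181d, was not. Over all 133 tested pairs, the medians were 0.24 for members and 0.09 for hosts. For the 29 pairs with a non-coding host they were 4.50 and 1.31, and for the 104 pairs with a protein-coding or pseudogene host 0.13 and 0.00. The difference between member and host was not tested, and members of 1 host share its value. How a read lying in both genes was counted is unknown.

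**Figure D3:**
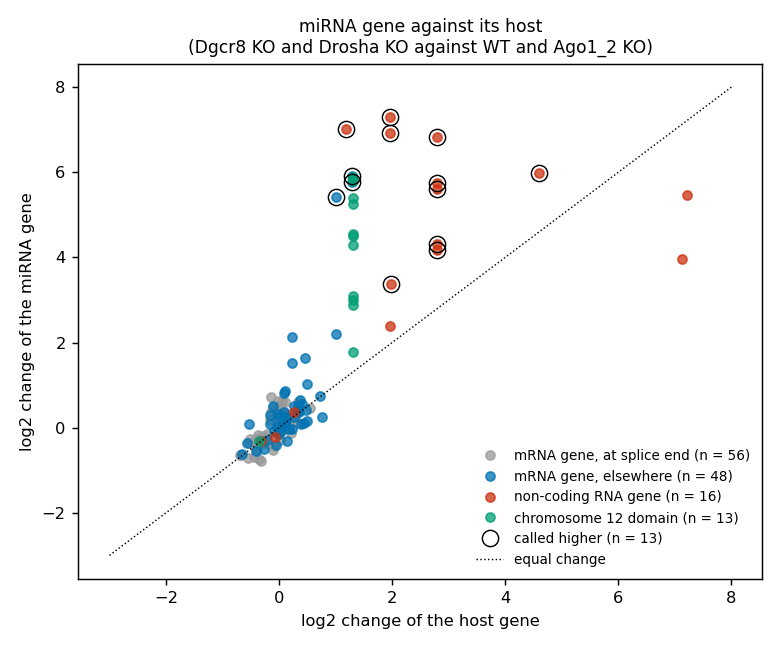
Joint log2 change of each tested miRNA gene (vertical axis) against that of its host gene (horizontal axis), coloured by position, with rings around the 13 called members and a dotted line of equal change. The ringed members all lie above the line, and most members in mRNA genes lie close to it near 0.

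The number of counts on members per 100 counts of the host is given for single libraries as a description. The hosts shown hold members named from these same counts, so the values are no further support. For the 5 members in Mir17hg it was 2.01 and 0.682 in WT, 8.43 and 7.57 in Dgcr8_KO, 8.37 and 9.22 in Drosha_KO, and 3.03 and 1.36 in Ago1_2_KO. The host itself went from 249 and 440 counts in WT to between 1769 and 3094 in the 4 libraries lacking a subunit. For Mir181c and Mir181d in Nanos3 it was 0 and 1.37 in WT, 29.5 and 46.3 in Dgcr8_KO, 27.5 and 26.8 in Drosha_KO, and 3.17 and 2.00 in Ago1_2_KO. In both hosts every library lacking a subunit exceeded every library with both. By contrast, Mir6963 stayed between 0.718 and 1.12 per 100 counts of its host Itga5 in all 8 libraries.

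In Dgcr8_KO against WT, 16 of 151 tested members rose and 3 fell, against 2.45% and 4.48% of all genes. At an unadjusted p under 0.05 there were 54. The 3 that fell were Mir692-2, Mir6418 (in Gnb2, a G protein subunit) and Mir3076 (in the transketolase gene Tkt). Mir6418 had 262 and 438 counts in WT, 125 and 112 in Dgcr8_KO, 309 and 505 in Drosha_KO, and 399 and 249 in Ago1_2_KO. Its log2 change was -1.39 ± 0.26 (edgeR adjusted p = 0.0194), and that of Gnb2 was -1.48. Its call was lost when WT 2 or either Dgcr8_KO library was left out. Mir3076 and Tkt changed by -1.15 and -1.30, and Mir692-2 and Ftl2-ps by -1.66 and -1.45.

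The count of 16 depended on every library: with WT 1 left out it was 25, and with WT 2 left out 5. It was 2 and 3 when Dgcr8 KO 1 and 2 were left out in turn, 31 and 32 for Drosha KO 1 and 2, and 10 for either Ago1_2_KO library. Over all genes the calls higher, 401 with every library, moved in the same directions: 2105 and 149 when WT 1 and 2 were left out, 25 and 36 for Dgcr8 KO 1 and 2, 795 and 776 for Drosha KO 1 and 2, and 162 and 158 for Ago1_2 KO 1 and 2. DESeq2 called 27 higher and 6 lower, and 42 and 7 were called without a filter on low counts. Over all genes these were 932 and 1350 with DESeq2, and 1307 and 1934 without a filter. The genes Mir20a and Mir92-1 remained called in all 8 of the fits that left out a library. With 1 library left in a group, that library was assumed to vary like the other groups.

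In Drosha_KO against WT, 27 of 151 tested members rose and 0 fell, against 6.54% and 4.83% of all genes; 53 had an unadjusted p under 0.05. Fewer members, and fewer of all genes, were called higher when WT 2 was left out. DESeq2 called 28 members higher and 0 lower, against 1568 and 1106 of all genes. Besides the loci described above, Mirlet7d, Mir29b-1, Mir30d, Mir700, Mir6914, Mir6963, Mir7677 and Mir8115 were among the 27. Of all 27, 11 lost the call in some fit that left out a library. Mir700, Mir6914, Mir6963 and Mir7677 were called in 1 of the 8 such fits, Mirlet7d in 3 and Mir8115 in all 8. Mir29b-1 (chr6:31063023-31063093, minus strand, in the non-coding gene Gm27019) had 36 and 30 counts in Drosha_KO and 0 in all 6 other libraries, at least 19.5-fold higher than in WT. Mir30d, in Gm20732, had 18 and 19 counts in Drosha_KO, 1 and 2 in Dgcr8_KO, and 0 in the 4 WT and Ago1_2_KO libraries. Mir15a, in an intron of the tumour suppressor locus transcript Dleu2, had 55 and 24 counts in Drosha_KO, 8 and 4 in Dgcr8_KO and 0 in the 4 others.

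The mutants were then set against each other. Drosha_KO exceeded Dgcr8_KO in 12 of 151 tested members and was below it in 0, against 9.67% and 5.74% of all genes, so the share higher, 7.95%, was near the background. At an unadjusted p under 0.05 there were 27. DESeq2 called 9 members higher and 0 lower, against 1932 and 1109 of all genes. All 12 lost the call when either Dgcr8_KO library was left out, in fits that also called far fewer of all genes. Among the 12, Mir29b-1 was at least 17.6-fold higher in Drosha_KO than in Dgcr8_KO. Mir101a (in the non-coding gene E130102H24Rik) had 54 and 130 counts in Drosha_KO against 6 and 10 in Dgcr8_KO, 5 and 1 in WT, and 3 and 1 in Ago1_2_KO. Its log2 difference between the mutants was 3.10 ± 0.62 (edgeR adjusted p = 0.0115), and its host differed by 1.29. Mirlet7a-1 differed by 3.15 ± 0.64 (edgeR adjusted p = 0.0176), and its host by 0.63. Mir30d had a ratio of 9.85 (interval 3.12 to 49.9).

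Other members in this comparison had hosts that differed about as much. Mir6418 and Gnb2 differed by 1.44 and 1.35, Mir8115 and its host P2rx7 by 1.94 and 2.07, and Mir6963 and Itga5 by 1.80 and 1.86. Hosts of 8 of the 12 were called higher too. Mir7658, in Plekhn1, was an exception, with 23 and 46 counts in Drosha_KO against 7 and 5 in Dgcr8_KO, a log2 difference of 2.15 ± 0.53, and a host difference of 0.54.

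In Ago1_2_KO against WT, where the Microprocessor genes were left in place, 5 of 151 tested members rose and 1 fell, against 10.2% and 7.38% of all genes, and 16 had an unadjusted p under 0.05. Their median log2 change was 0.00. The 5 were Mir700, Mir8115, Mir6963, Mir6914 and Mir7677, and their hosts Rcan3, P2rx7, Itga5, Ankrd52 and Itpr3 were all called higher. Mir6963 had 7 and 10 counts in WT, 8 and 8 in Dgcr8_KO, 34 and 35 in Drosha_KO, and 46 and 30 in Ago1_2_KO. Thus Ago1_2_KO and Drosha_KO were high and Dgcr8_KO was at the WT level. The log2 change was 2.18 ± 0.48 in Ago1_2_KO (edgeR adjusted p = 0.0163), and 1.71 for its host Itga5, an integrin.

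Mir6914 had 13 and 2 counts in WT, 13 and 12 in Dgcr8_KO, 42 and 53 in Drosha_KO, and 62 and 44 in Ago1_2_KO, with a log2 change of 2.81 ± 0.67 in Ago1_2_KO (edgeR adjusted p = 0.0222). Its host Ankrd52 changed by 2.05. The calls of Mir6963, Mir6914 and Mir8115 in Ago1_2_KO were lost when either Ago1_2_KO library was left out. Of the 8 fits that left out a library, the others were called in fewer, Mir700 in 3, Mir7677 in 2 and Mir682 in 3. Mir8115, in an exon of the ATP-gated channel gene P2rx7, changed by 2.02 and its host by 2.11. The member that fell was Mir682, by 1.24 on the log2 scale, in the pseudogene Gm4149, which fell by 1.33. The count of 5 rose when WT 1 was left out. It fell when WT 2, either Dgcr8_KO library or, most of all, either Ago1_2_KO library was. The calls higher over all genes moved in the same directions in these fits. DESeq2 called 3 members higher, against 2059 of all genes.

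A separate block of 25 members lay in the imprinted Dlk1-Dio3 domain of chromosome 12, in and around the maternally expressed non-coding genes Meg3 and Mirg, and 19 of them were tested. Together they had 122 and 166 counts in WT, 966 and 576 in Dgcr8_KO, 3 and 1136 in Drosha_KO, and 280 and 164 in Ago1_2_KO. Drosha KO 1 stood apart, with 23 of the 25 at 0 counts, whereas 0 of the 25 were at 0 in Drosha KO 2 and in either Dgcr8_KO library. Mirg itself had 6 counts in Drosha KO 1 and 3608 in Drosha KO 2.

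**Figure D4:**
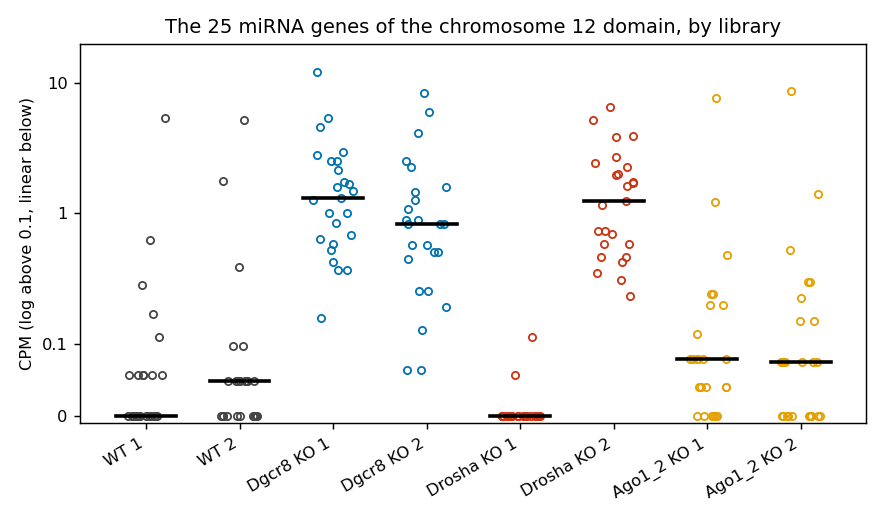
CPM of the 25 members of the chromosome 12 domain in each library (1 point per gene, bar at the median), on an axis that is logarithmic above 0.1 CPM and linear below. Both Dgcr8_KO libraries and Drosha KO 2 lie above WT and Ago1_2_KO, and Drosha KO 1 has nearly all points at 0.

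In this domain Mir485 and Mir496a rose in Dgcr8_KO against WT, and 0 members were called in the other comparisons. Mir485 had 0 and 1 counts in WT, 88 and 65 in Dgcr8_KO, 0 and 100 in Drosha_KO, and 5 and 2 in Ago1_2_KO. Its ratio in Dgcr8_KO was 169, with an interval of 29.9 to 6731. Both genes lost the call when any WT, Dgcr8_KO or Ago1_2_KO library was left out. Without Drosha KO 1, 17 of 23 tested members rose in Dgcr8_KO, 14 of 23 in Drosha_KO and 14 of 23 in the joint comparison. Over the 17158 genes tested in that fit, the calls higher numbered 795, 490 and 93. Without Drosha KO 2, 17 of 19 rose in Dgcr8_KO, and 2 fell in Drosha_KO against WT. Over the 17111 genes of that fit, 776 rose in Dgcr8_KO and 1124 fell in Drosha_KO. Counting without a test, the 3 remaining libraries lacking a subunit lay above the 4 others in 21 of the 25 members when Drosha KO 1 was left out. Over all 247 members this held for 52, and among genes with 20 or more counts for 2.82%.

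Within the domain, Mir1906-1 and Mir3072 were among the members whose counts overlapped between groups also without Drosha KO 1. Mir3072, in Mirg, had 5 and 8 counts in WT, 8 and 7 in Dgcr8_KO, 0 and 8 in Drosha_KO, and 12 and 7 in Ago1_2_KO. Mir1906-1, in an exon of Meg3, had 95 and 108 counts in WT, 232 and 133 in Dgcr8_KO, 2 and 135 in Drosha_KO, and 195 and 117 in Ago1_2_KO. Per 100 counts of Meg3 it stood at 1.87 and 1.53 in WT, 3.05 and 1.88 in Dgcr8_KO, 1.49 in Drosha KO 2, and 2.43 and 1.92 in Ago1_2_KO, with overlap among the groups. For the members in Mirg the same measure was 5.74 and 5.28 in WT, 23.7 and 17.6 in Dgcr8_KO, 19.8 in Drosha KO 2, and 8.21 and 6.70 in Ago1_2_KO. The libraries lacking a subunit did not overlap the others here. Drosha KO 1, which held few counts on either host, was left out of both measures.

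Reads from unspliced or nuclear RNA could differ between libraries, so measures of them are given beside the members in introns. The 535 annotated snoRNA genes in introns summed to 103 and 124 CPM in WT, 153 and 126 in Dgcr8_KO, 92.6 and 67.0 in Drosha_KO, and 87.7 and 76.8 in Ago1_2_KO. The nuclear RNA Malat1 stood at 491 and 232 CPM in WT, 612 and 442 in Dgcr8_KO, 423 and 572 in Drosha_KO, and 401 and 302 in Ago1_2_KO. Neat1 stood at 106 and 90.3, 160 and 141, 86.0 and 93.6, and 67.4 and 53.8 CPM in the same order. The snoRNA sum and Neat1 were highest in the Dgcr8_KO libraries, whereas Malat1 overlapped among WT, Dgcr8_KO and Drosha_KO, and the snoRNA sum was lower in Drosha_KO than in WT. Their part in the results was not tested.

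The 15 miRNA genes left out by name that had 20 or more counts moved mostly upward: 14 rose and 0 fell in the joint comparison, 13 and 1 in Dgcr8_KO, 15 and 0 in Drosha_KO, and 0 and 1 in Ago1_2_KO. The shares over all genes were 0.5% and 0.934%, 2.45% and 4.48%, 6.54% and 4.83%, and 10.2% and 7.38%. Since they were named with such results known, these counts are given as a description of what the 247 members leave out.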

How the data were processed

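Polyadenylated RNA was measured in 8 libraries (TruSeq kit, 1 ug total RNA, reverse-stranded, per the labels' protocols). The authors deposited whole-number counts per gene; reads were aligned with STAR 2.4.2a to mm10 (GRCm38), per the submitters' processing notes. For the counting tool, its strand setting and its annotation, nothing is given in the sources used here. Positions came from GENCODE M21, matched by Ensembl identifier.

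All genes passing filterByExpr by genotype (16388) were fitted with TMM factors in edgeR 4.0.16 on R 4.3.3, 1 mean per genotype over all 8 libraries, robust quasi-likelihood F tests and Benjamini-Hochberg adjustment over all genes tested; only members' rows are printed. CPM use TMM-scaled sizes. The script was tested on simulated data. DESeq2 1.42.0 and other settings served as alternatives. Groups at 0 were set to 3 counts over the group for fold bounds; groups with 1 to 3 counts have a ratio with an exact 95% binomial interval.

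Members, lists and comparisons were chosen with earlier results of these data known. Named members were, per comparison and direction, the 6 largest called changes, the 8 with most counts, all let-7 genes, genes made without the usual cut, and those next to the threshold. Further names, such as cluster neighbours and host partners, were added after values were seen. Of the 8 with most counts, 1 is not reported here.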

Additional observations from a re-analysis of the deposited data

How the results depend on the processing

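No called member changed sign under any alternative. The rise in the joint comparison (19) became 30 with DESeq2 and 50 without a filter on low counts, where 2 fell. Over all genes the 82 called higher became 211 and 436 in these fits, and 793 fell without a filter. The fits without a filter tested 27381 genes, against 16388 in the main fit. For Dgcr8_KO the 16 higher and 3 lower became 27 and 6 with DESeq2, and 42 and 7 without a filter. Lower calls were 1 with an offset for GC content. Over all genes the 401 higher and 735 lower became 932 and 1350 with DESeq2, and 1307 and 1934 without a filter. With the GC offset 427 of all genes were lower. For Drosha_KO, 50 rose and 3 fell without a filter, against 1901 and 1512 of all genes. For Ago1_2_KO, 3 rose with DESeq2 and 3 when only the compared groups were fitted, and 5 fell without a filter. Over all genes 2059 and 1351 rose and 2018 fell in these fits. Drosha_KO exceeded Dgcr8_KO in 6 members with the GC offset, and in 21, with 3 below, without a filter. Over all genes, 1191 were above with the GC offset, and 2350 above and 1243 below without a filter. With a replicate block, 7 members fell in Dgcr8_KO, 1 in Drosha_KO and 2 in Ago1_2_KO, and 22, 26 and 5 rose. Over all genes 1531, 1276 and 1804 fell and 1264, 1608 and 2249 rose. Replicate deviations of same-numbered libraries correlated by 0.096 to 0.245, not above 0.1 in every pair. The numbers were therefore not taken as pairing the samples. The cause of these changes was not tested. Leaving out 1 library at a time gave 9 to 32 higher and 0 to 3 lower in the joint comparison, 2 to 32 and 0 to 9 in Dgcr8_KO, 17 to 35 and 0 to 7 in Drosha_KO, 0 to 14 and 0 to 7 in Ago1_2_KO, and 0 to 17 and 0 to 13 for Drosha_KO against Dgcr8_KO. Calls over all genes also varied between the fits that left out 1 library. Uncalled mirtron values crossed 0: Mir1982 lay between -0.021 (without WT 1) and 0.45 when 1 library was left out, and Mir702 at 0.25 with the GC offset. The check without Drosha KO 1 of groups that do not overlap was chosen after seeing the data. The 96 members under the filter on low counts have no test at this depth.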
